A study of Mus musculus with 15 samples.

Results

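The 10 genes described here encode ligands and other regulators through which a cell can restrain or engage T cells and natural killer (NK) cells: Cd274, Vsir, Tnfsf10, Lgals1, Lgals9, Pvr, Nectin2, Tnfrsf14, Cd276 and Tgfb1. They were taken by name from a table of 21839 genes. All 10 were found once, and all 10 passed the filter on low counts among the 13887 genes tested. RNA was measured in lymphatic endothelial cells, the cells that line lymph vessels and the sinuses of lymph nodes, from C57bl/6 mice of 10 weeks that carried a transplanted mouse melanoma line described as lymphangiogenic, that is, inducing lymph vessel growth. The cells were sorted as CD45neg (not leukocytes), CD31+ (the endothelial protein of Pecam1) and gp38+ (the lymphatic and stromal protein of Pdpn). There were 5 libraries from non-draining lymph nodes (NdLN), 5 from tumor-draining lymph nodes (TdLN) and 5 from the tumors (Tumor). All mice of the design bore the melanoma, so NdLN is a node away from the tumor in a tumor-bearing mouse and not a node of a healthy mouse. No genotype, time after transplantation or number of animals per library is given in the sources used here, so p-values measure only the spread between these libraries, which may be technical.

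T cells are switched on through their antigen receptor and are then tuned by further contacts. PD-L1, the product of Cd274, holds T cells back by binding PD-1, and lymphatic endothelial cells of lymph nodes are known to display it while presenting self antigens to T cells. VISTA (Vsir) and B7-H3 (Cd276) belong to the same B7 family, TRAIL (Tnfsf10) is a TNF family ligand that can kill cells through death receptors, PVR and Nectin-2 are shared by an activating and an inhibitory receptor of T and NK cells, galectins bind sugars on T-cell surfaces, and TGF-beta 1 is a secreted cytokine that restrains T cells. The design asks how these genes differ between lymphatic cells of the tumor, of the node that receives its lymph and of a node that does not.

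Levels below are CPM, each gene's count scaled to a common library total with TMM factors, and each fold change is the log2 value of 1 edgeR fit of all 15 libraries with its standard error. A change was called at an adjusted p under 0.05. Library totals ran from 23830337 to 37437282 counts, and library 1 of the Tumor group had the lowest total. The sort genes were checked first. Pdpn averaged 124 ± 20.7 CPM over the NdLN libraries, 120 ± 15.4 CPM over TdLN and 116 ± 46.4 CPM over Tumor (SD, n = 5). Pecam1 was at 1596 ± 84.7, 1179 ± 87.1 and 276 ± 86.7 CPM in the same order, and Prox1, the transcription factor that specifies lymphatic identity, at 766 ± 52.9, 539 ± 74.9 and 105 ± 22.7 CPM. Ptprc, which encodes CD45, averaged 5.43, 1.10 and 1.68 CPM. The 10 listed lymphatic genes, Pdpn, Pecam1 and Prox1 among them, summed to 8158 to 10707 CPM in NdLN, 6969 to 8667 CPM in TdLN and 3574 to 5083 CPM in Tumor. Of these 10 genes 6 were lower and 2 higher in Tumor than in TdLN, and 5 were lower and 2 higher than in NdLN. The higher genes in both were Reln, from 35.4 CPM in TdLN to 83.7 CPM in Tumor, and the chemokine gene Ccl21a, from 135 to 1227 CPM, whose near-identical copies make its counts uncertain. The Tumor libraries also held transcripts of other cells. The 8 listed pigment cell genes analysed here summed to 24129 to 39608 CPM in Tumor libraries and to 12.0 to 37.6 CPM in node libraries, and 8 of 8 were higher in Tumor than in TdLN. Fibroblast genes summed to 1524 CPM in Tumor library 1 and to 2909 to 10560 CPM in the other Tumor libraries, against 962 to 2397 CPM in the nodes. Most of the node sum was Postn, which averaged 1381 CPM in NdLN, 1149 CPM in TdLN and 170 CPM in Tumor. Without Postn, a sum added after the data had been seen, the list came to 1404 to 10320 CPM in Tumor and 156 to 598 CPM in the nodes. Of the 12 fibroblast genes 9 were higher and 2 lower in Tumor than in TdLN. The collagen gene Col3a1 averaged 45.5 CPM in TdLN and 2114 CPM in Tumor, and the lowest Tumor library for Col1a1 (101 CPM) was above its highest node library (40.2 CPM). Macrophage genes summed to 208 to 356 CPM in Tumor and 49.8 to 181 CPM in the nodes, and T and NK cell genes to no more than 18.1 CPM in any library. The largest part of the macrophage sum in the nodes was Mrc1, which averaged 40.6 CPM in NdLN, 92.6 CPM in TdLN and 73.0 CPM in Tumor. Of the 11 macrophage genes 10 were higher and none lower in Tumor than in TdLN. Blood endothelial genes, a list that shares genes with lymphatic cells, summed to 965 to 1334 CPM in Tumor and 4427 to 5318 CPM in the nodes. The part of these cells in the Tumor results was not tested. In such bulk samples, fewer cells of a type and less RNA per cell cannot be told apart.

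Between TdLN and NdLN, none of the 10 genes was called, where edgeR called 3.49% of all genes tested. At an unadjusted p under 0.05 there were 3, namely Lgals1, Lgals9 and Cd276, each with the higher mean in TdLN, and DESeq2 called 1, Cd276. The share of all genes passing is not given here for either of these rules, so nothing is read from these counts. Between Tumor and TdLN, 7 of 10 were called: Cd276 and Lgals1 rose in Tumor and Cd274, Vsir, Tnfsf10, Nectin2 and Tnfrsf14 fell. Of all genes tested 62% were called in that comparison, 31.9% higher and 30.1% lower, so being called was common among all genes. Between Tumor and NdLN the same 7 genes were called in the same directions, where 66.5% of all genes tested were called, 34% higher and 32.5% lower. Both Tumor comparisons use the same Tumor libraries. The median log2 fold change of the 10 genes was 0.20 in TdLN against NdLN, -1.09 in Tumor against TdLN and -0.81 in Tumor against NdLN, beside -0.01, 0.04 and 0.04 over all genes tested. The groups did not overlap in any library for 7 of the 10 genes in Tumor against TdLN (46.6% of all genes tested) and for 6 of the 10 in Tumor against NdLN (54.6%). Against a minimum log2 change of 1 (edgeR's glmTreat), the calls were 7 of 10 in Tumor against TdLN, where 25.4% of all genes were called, and 6 of 10 in Tumor against NdLN, where 30.2% were.

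**Figure D1:**
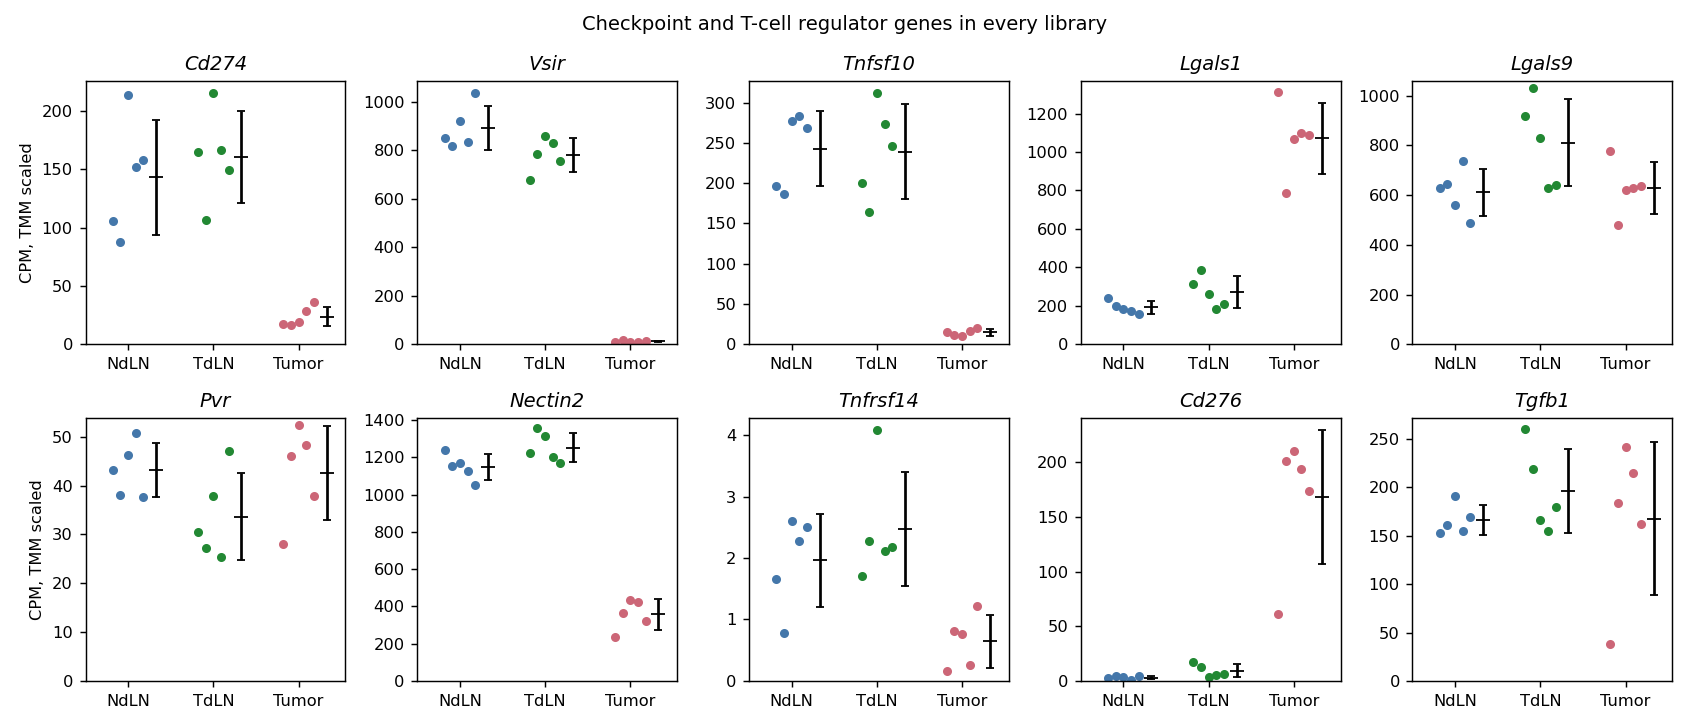
CPM (TMM scaled, linear axes from 0) of each of the 10 genes in each of the 15 libraries, in columns NdLN, TdLN and Tumor; bars give the mean and SD of 5 libraries. Vsir lies between 9.31 and 16.2 CPM in Tumor and between 676 and 1033 CPM in the nodes, and Cd276 is above every node library in all Tumor libraries, with library 1 the lowest at 61.0 CPM.

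The sequences upstream of 3 of these genes are shown because they are the 2 with the largest falls (Vsir and Tnfsf10) and the best known checkpoint ligand among them (Cd274). Promoters of 8 of the 10 genes were matched in the RefSeq table, each as the 250 bases before the RefSeq transcription start, build GRCm38.p6. RefSeq starts can differ from the ends of the GENCODE genes, whose positions are given with each gene. The windows of Cd276, Nectin2 and Tnfrsf14 lie wholly inside the GENCODE gene, that of Tnfsf10 enters it by 49 bases and that of Lgals9 by 22 bases. Only bases outside the GENCODE gene are printed, 5′ to 3′ on the strand of the gene, with capitals marking the GC box GGGCGG or its reverse complement CCGCCC. The runs lie on the plus strand at chr19:29367188-29367437 (Cd274), chr10:60346601-60346850 (Vsir) and chr3:27316827-27317027 (Tnfsf10).
Cd274: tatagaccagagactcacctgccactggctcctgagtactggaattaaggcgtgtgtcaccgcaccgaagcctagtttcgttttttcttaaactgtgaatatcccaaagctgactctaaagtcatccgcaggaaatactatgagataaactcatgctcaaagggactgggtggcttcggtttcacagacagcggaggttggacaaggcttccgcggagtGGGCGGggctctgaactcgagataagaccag
Vsir: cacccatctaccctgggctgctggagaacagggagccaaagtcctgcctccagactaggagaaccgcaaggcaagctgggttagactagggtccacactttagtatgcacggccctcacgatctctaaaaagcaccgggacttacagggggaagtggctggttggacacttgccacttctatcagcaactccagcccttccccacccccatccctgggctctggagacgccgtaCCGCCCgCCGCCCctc
Tnfsf10: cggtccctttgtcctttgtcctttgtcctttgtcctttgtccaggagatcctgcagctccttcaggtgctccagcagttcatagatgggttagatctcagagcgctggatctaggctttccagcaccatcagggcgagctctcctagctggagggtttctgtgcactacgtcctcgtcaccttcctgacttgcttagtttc
Both strands were searched for 3 motifs: GGGCGG, the interferon response element written GAAANNGAAA and the STAT element written TTCNNNGAA, which is its own reverse complement. The GC box was in 5 of the 8 windows (1 match in Cd274, 2 in Vsir, 2 in Nectin2, 3 in Cd276 and 5 in Tgfb1) and in 32.7% of the 32851 promoters of the same length. The whole window of Tnfsf10 held none of the 3 motifs. The interferon element was found as TTTCTTTTTC in Lgals9, 55 to 46 bases before the start, and as TTTCATTTTC in Tnfrsf14, 64 to 55 bases before it, and 2.98% of all promoters held it. No STAT element of these letters was in the 8 windows, and 7.02% of all promoters held one. No matches overlapped. A match is a description of letters only.

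Of the B7 family, Cd274 encodes PD-L1 and lies on chromosome 19 (29367455 to 29388095, plus strand, GRCm38). Its level was 105, 87.8, 213, 152 and 158 CPM in NdLN libraries 1 to 5, 165, 106, 216, 167 and 149 CPM in TdLN and 17.7, 16.7, 19.5, 28.1 and 36.2 CPM in Tumor. The Tumor libraries lay below every node library, and the node groups overlapped. Cd274 fell by 2.76 ± 0.28 on the log2 scale in Tumor against TdLN (edgeR adjusted p = 7.3e-07) and by 2.60 ± 0.28 against NdLN (edgeR adjusted p = 1.03e-06). In TdLN against NdLN the log2 fold change was 0.16 ± 0.26 (edgeR adjusted p = 0.80). Part of the exons of Cd274 (511 bases) overlaps an antisense gene, as do parts of Nectin2 (135 bases) and, with an unclassified transcript on the other strand, Cd276 (416 bases). The strand setting of the counting is not given in the sources used here, so reads from such overlaps cannot be told apart.

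Vsir encodes VISTA, a B7 family protein that acts on T cells both as ligand and as receptor and lies on chromosome 10 (60346851 to 60372684, plus strand). It was the member with the largest fall. Its CPM was 849, 817, 921, 834 and 1033 in NdLN, 676, 784, 859, 828 and 756 in TdLN and 10.6, 16.2, 10.5, 9.31 and 13.3 in Tumor. The gap between Tumor and node libraries was far wider than the spread within any group, where the highest library was 1.26 times the lowest in NdLN, 1.27 times in TdLN and 1.74 times in Tumor. Vsir fell by 6.02 ± 0.17 on the log2 scale in Tumor against TdLN (edgeR adjusted p = 2.13e-12) and by 6.22 ± 0.17 against NdLN (edgeR adjusted p = 1.52e-12). In TdLN against NdLN the log2 fold change was -0.19 ± 0.13 (edgeR adjusted p = 0.51).

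Cd276 encodes B7-H3, a B7 family protein reported to inhibit T cells, and lies on chromosome 9 (58524298 to 58555437, minus strand). It was close to the lower end in nodes, at 2.39, 4.43, 3.31, 0.879 and 4.37 CPM in NdLN and 17.5, 13.2, 3.63, 5.66 and 6.49 CPM in TdLN. In Tumor it was at 61.0, 201, 211, 194 and 174 CPM. Every Tumor library exceeded every node library, and Tumor library 1 was well below the other Tumor libraries. Cd276 rose by 4.18 ± 0.52 on the log2 scale in Tumor against TdLN (edgeR adjusted p = 5.17e-06) and by 5.77 ± 0.56 against NdLN (edgeR adjusted p = 3.38e-07). Without Tumor library 1 the rise against TdLN was 4.39 (edgeR adjusted p = 3.48e-06). In TdLN against NdLN the log2 fold change was 1.59 ± 0.48 (edgeR unadjusted p = 0.00467, adjusted p = 0.0894). All TdLN libraries but library 3 were above every NdLN library. With DESeq2 the log2 fold change was 1.57 (adjusted p = 0.0116), and the adjusted p ran from 0.0116 to 1 over the 21 alternatives tried. The upper end is the glmTreat value, from a test against a minimum log2 change of 1.

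Of the TNF superfamily, Tnfsf10 encodes TRAIL, which signals death through DR5 (Tnfrsf10b) and is captured by the decoy osteoprotegerin (Tnfrsf11b). It lies on chromosome 3 (27317028 to 27342427, plus strand). Its CPM was 197, 187, 277, 283 and 268 in NdLN, 200, 164, 312, 274 and 246 in TdLN and 15.4, 10.9, 10.2, 16.2 and 20.1 in Tumor. The node groups shared their range and the Tumor libraries were all below it. Tnfsf10 fell by 4.04 ± 0.24 on the log2 scale in Tumor against TdLN (edgeR adjusted p = 1.61e-09) and by 4.06 ± 0.24 against NdLN (edgeR adjusted p = 1.34e-09). In the same Tumor against TdLN comparison, the death receptor gene Tnfrsf10b fell from 18.7 to 9.23 CPM and the decoy gene Tnfrsf11b rose from 0.155 to 25.2 CPM.

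Tnfrsf14 encodes HVEM, a receptor of the TNF superfamily that also serves as a ligand for the inhibitory receptor BTLA, and lies on chromosome 4 (154921933 to 154928563, minus strand). Its counts were low, so counting error weighs on its values. NdLN libraries had 27 to 92 counts (0.782 to 2.60 CPM), TdLN libraries 59 to 142 counts (1.70 to 4.09 CPM) and Tumor libraries 4 to 42 counts (0.164 to 1.22 CPM). Tumor and TdLN libraries did not overlap, whereas Tumor libraries 2 and 5 were above the lowest NdLN library. Tnfrsf14 fell by 1.93 ± 0.51 on the log2 scale in Tumor against TdLN (edgeR adjusted p = 0.0042) and by 1.60 ± 0.51 against NdLN (edgeR adjusted p = 0.0118). Against a minimum log2 change of 1, the second call was lost (glmTreat adjusted p = 0.125, against 0.003 to 0.125 over its 20 alternatives).

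Nectin2 and Pvr sit on mouse chromosome 7 (19716644 to 19750483 and 19903578 to 19921160, both on the minus strand) and encode adhesion proteins read by the activating receptor DNAM-1 (Cd226) and the inhibitory receptor TIGIT. Nectin2 had the smallest spread of the 10 genes within each node group. Its CPM was 1240, 1151, 1170, 1125 and 1053 in NdLN, 1224, 1356, 1315, 1200 and 1167 in TdLN and 237, 365, 437, 422 and 323 in Tumor. All Tumor libraries were below the nodes, whose groups overlapped. Nectin2 fell by 1.81 ± 0.14 on the log2 scale in Tumor against TdLN (edgeR adjusted p = 2.82e-08) and by 1.69 ± 0.14 against NdLN (edgeR adjusted p = 4.83e-08). Pvr differed from its neighbour. Its CPM was 37.6 to 50.7 in NdLN, 25.4 to 47.0 in TdLN and 28.1 to 52.5 in Tumor, and all groups overlapped. The log2 fold change of Pvr in Tumor against TdLN was 0.34 ± 0.19 (edgeR adjusted p = 0.131). It passed under 4 of 21 alternatives: without Tumor library 1 (0.46, edgeR adjusted p = 0.0339), the lowest Tumor library for Pvr at 28.1 CPM, without TdLN library 5 (0.46, edgeR adjusted p = 0.0493), the highest TdLN library at 47.0 CPM, with limma voom and quality weights (0.44, adjusted p = 0.0495), and with the offset for exon length that was added after the data had been seen (0.43, edgeR adjusted p = 0.0498). Over all 21 its adjusted p ran from 0.0339 to 1, where the upper end is the glmTreat value against a minimum log2 change of 1.

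Galectin-1, the product of Lgals1, is a secreted sugar-binding protein that can kill or restrain activated T cells. The gene lies on chromosome 15 (78926725 to 78930465, plus strand). Its CPM was 243, 201, 184, 170 and 159 in NdLN, 316, 388, 259, 183 and 208 in TdLN and 1312, 789, 1066, 1098 and 1091 in Tumor. All Tumor libraries were above all node libraries. Lgals1 rose by 1.99 ± 0.20 on the log2 scale in Tumor against TdLN (edgeR adjusted p = 6.33e-07) and by 2.48 ± 0.20 against NdLN (edgeR adjusted p = 5.5e-08). With 903 bases of exon, Lgals1 is among the shortest genes, and the 357 tested genes of up to 1000 bases had a median log2 fold change of 0.60 in Tumor against TdLN. With an offset that removes the trend with length, an alternative added after the data had been seen, the rise of Lgals1 was 1.53 (edgeR adjusted p = 2.11e-07, against 1.12e-21 to 0.000111 over its alternatives). In TdLN against NdLN the log2 fold change was 0.50 ± 0.19 (edgeR unadjusted p = 0.0212, adjusted p = 0.193), and TdLN libraries 1 to 3 lay above every NdLN library.

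Lgals9 encodes galectin-9, a ligand of the inhibitory receptor TIM-3 (Havcr2), and lies on chromosome 11 (78962974 to 78984946, minus strand). Unlike Lgals1 it overlapped between Tumor and the nodes, at 628, 643, 561, 737 and 487 CPM in NdLN, 918, 1031, 831, 630 and 640 CPM in TdLN and 778, 480, 619, 630 and 636 CPM in Tumor. TdLN libraries 1 to 3 were above all other libraries of the series, and the remaining TdLN libraries lay within the NdLN range. The log2 fold change was 0.41 ± 0.16 in TdLN against NdLN (edgeR unadjusted p = 0.0229, adjusted p = 0.199) and -0.37 ± 0.16 in Tumor against TdLN (edgeR adjusted p = 0.0586). The latter passed as a fall under 6 of 21 alternatives, among them without Tumor library 1 (-0.46, edgeR adjusted p = 0.0241), without TdLN library 4 (-0.45, edgeR adjusted p = 0.0263) and without TdLN library 5 (-0.47, edgeR adjusted p = 0.0194). Over all 21 alternatives the adjusted p was 0.00143 to 1, where the upper end is the glmTreat value against a minimum log2 change of 1. The lower end is from edgeR with the offset for exon length (-0.58), which was added after the data had been seen.

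Tgfb1 encodes TGF-beta 1 and lies on chromosome 7 (25687002 to 25705077, plus strand). Its CPM was 153, 162, 191, 155 and 169 in NdLN, 261, 219, 166, 155 and 180 in TdLN and 37.7, 184, 241, 214 and 162 in Tumor. The Tumor mean of 168 ± 78.7 CPM was close to the NdLN mean of 166 ± 15.4 CPM (SD, n = 5), with a wide Tumor range set by library 1. No comparison of Tgfb1 passed. Without Tumor library 1 the log2 fold change was 0.03 against TdLN (edgeR adjusted p = 0.885) and 0.27 against NdLN (edgeR adjusted p = 0.136). Over the alternatives the adjusted p of Tgfb1 in Tumor ran from 0.136 to 1, where the upper end is the glmTreat value against a minimum log2 change of 1.

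**Figure D2:**
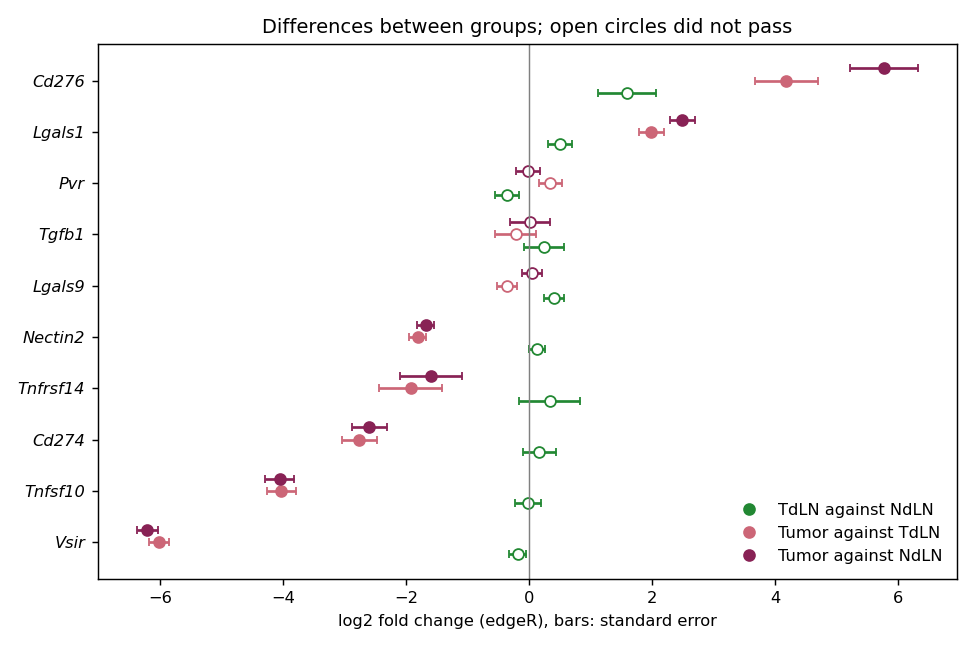
Log2 fold change of each of the 10 genes in the 3 comparisons (edgeR, horizontal axis; bars give the standard error), with filled circles for values that passed at an adjusted p under 0.05. All TdLN against NdLN circles are open, and in both Tumor comparisons Vsir has the lowest value (-6.02 and -6.22) and Cd276 the highest (4.18 and 5.77).

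Some libraries were the highest or lowest of their group for several of the 10 genes. The share of all genes for which each library was extreme is not given here, so this is not read as particular to the 10. In TdLN, library 3 was the highest for Cd274, Vsir, Tnfsf10 and Tnfrsf14, while libraries 1 and 2 were the highest pair for Lgals1, Lgals9, Cd276 and Tgfb1. In NdLN, library 2 was the lowest and library 1 the second lowest for Cd274, Tnfsf10 and Tnfrsf14. In Tumor, library 1 was the lowest for Pvr, Nectin2, Tnfrsf14, Cd276 and Tgfb1 and the highest for Lgals1 and Lgals9. That library also had the lowest count total, the lowest fibroblast sum (1524 CPM) and the highest macrophage sum of its group (356 CPM). Its lymphatic sum (3574 CPM) was the lowest of the group as well, as were its Pecam1 (133 CPM), Pdpn (41.0 CPM) and Prox1 (73.5 CPM). The part of these measures in its values was not tested. Without Tumor library 1, 9 of 10 genes were called in Tumor against TdLN, with Lgals9 and Pvr added, where 60.8% of all genes tested in that refit were called, and 7 of 10 in Tumor against NdLN, where 65.2% were.

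To compare the genes with each other, CPM was divided by the length of each gene's exons in kilobases (CPM per kb). In NdLN the order from high to low was Nectin2 (329 CPM per kb), Lgals9 (286), Lgals1 (212), Vsir (178), Tnfsf10 (46.0), Cd274 (39.6), Tgfb1 (32.9), Pvr (7.05), Tnfrsf14 (1.37) and Cd276 (0.841). Neighbours whose libraries overlapped formed 4 blocks: Nectin2 to Vsir, Tnfsf10 to Tgfb1, Pvr alone, and Tnfrsf14 with Cd276. In TdLN the order was Lgals9 (379), Nectin2 (358), Lgals1 (300), Vsir (156), Tnfsf10 (45.4), Cd274 (44.3), Tgfb1 (38.9), Pvr (5.48), Cd276 (2.54) and Tnfrsf14 (1.72), with Vsir now below and apart from the 3 leading genes. In Tumor it was Lgals1 (1186), Lgals9 (294), Nectin2 (102), Cd276 (46.0), Tgfb1 (33.3), Pvr (6.95), Cd274 (6.52), Tnfsf10 (2.77), Vsir (2.39) and Tnfrsf14 (0.447). There each of the first 3 genes was separate from the next, while Cd276 to Cd274 overlapped as neighbours. Among the 13855 tested genes with a length, the level of Vsir per kb went from the 98.1 percentile in NdLN and 97.7 in TdLN to 39.0 in Tumor. Cd276 stood at the 24.5, 39.9 and 90.3 percentile in the same order, and Cd274 at 89.6, 90.6 and 58.2.

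**Figure D3:**
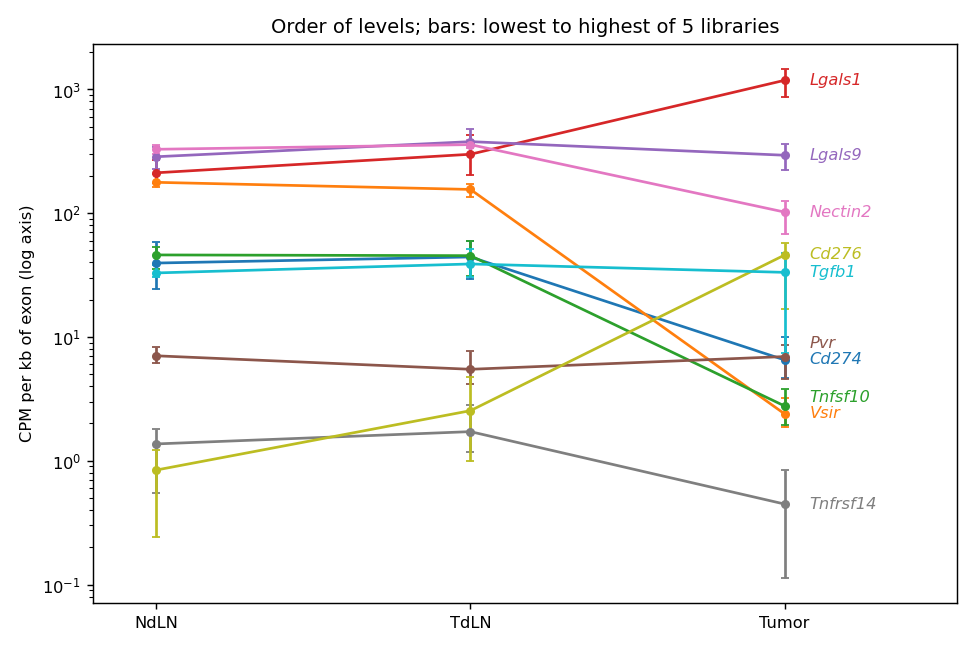
Mean CPM per kb of exon (log axis) of the 10 genes in NdLN, TdLN and Tumor; bars run from the lowest to the highest of 5 libraries, and lines only join the means of 1 gene. Vsir leaves the group of high genes in Tumor (178, 156 and 2.39 CPM per kb), and Cd276 rises from the lowest places to 46.0.

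Because the Tumor libraries held less Pecam1 and Prox1, each gene was also set against these endothelial genes within the same library, as the log2 ratio of (CPM + 1), with an exact two-sided permutation test whose smallest possible p was 0.00794. Relative to Pecam1, 7 of the 10 genes were higher in Tumor than in TdLN and 2 were lower. Tnfrsf14 was among the 7 (1.08), but its own level of 0.164 to 4.09 CPM in these groups is of the size of the added 1. Without the added 1 its CPM ratio to Pecam1 overlapped, at 0.000777 to 0.0048 in Tumor and 0.00159 to 0.00319 in TdLN. It is also counted as higher in both comparisons with NdLN below. Of all genes, 89.5% were higher and 2.41% lower by this measure, and Pecam1 itself fell by 2.10 on the log2 scale. Vsir was lower by this measure too, with a difference of -3.77 in the log2 ratio to Pecam1 and -3.56 in that to Prox1 (exact permutation adjusted p = 0.0091 and 0.0089). Tnfsf10 was the other lower gene, at -1.78 and -1.58 (exact permutation adjusted p = 0.0091 and 0.0089). Relative to Prox1 2.23% of all genes were lower and 91.8% higher. The CPM ratio of Vsir to Pecam1 lay between 0.028 and 0.0797 in Tumor libraries and between 0.606 and 0.707 in TdLN. That of Tnfsf10 lay between 0.030 and 0.116 in Tumor and 0.147 and 0.243 in TdLN.

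Cd274 did not pass as lower by these ratios. Its CPM ratio to Pecam1 was 0.0527 to 0.142 in Tumor, 0.0950 to 0.168 in TdLN and 0.0523 to 0.145 in NdLN, so that the groups overlapped. The log2 ratio difference in Tumor against TdLN was -0.57 to Pecam1 (exact permutation adjusted p = 0.134) and -0.37 to Prox1 (exact permutation adjusted p = 0.245). With Cdh5, an endothelial junction gene that fell less in Tumor (-0.83 on the log2 scale), the ratio of Cd274 was lower by -1.87 (exact permutation adjusted p = 0.0155). The direction of Nectin2 also turned with the denominator: 0.33 to Pecam1, 0.53 to Prox1 and -0.97 to Cdh5. In Tumor against TdLN, Vsir and Tnfsf10 passed as lower and Lgals1, Pvr and Cd276 as higher under all 3 denominators. Passing as higher was common, at 89.5% of all genes relative to Pecam1 and 91.8% relative to Prox1. That share is not given here for Cdh5. The difference of Pvr relative to Pecam1 was 2.50, near the median of 2.19 over all genes. The level of Pvr itself did not pass (0.34, edgeR adjusted p = 0.131), so its higher ratios are not read as a rise of Pvr. Cd274 had a negative difference under all 3 denominators but passed only with Cdh5. Lgals9 and Tgfb1 had a positive one under all 3 but did not pass with Cdh5 (0.51 and 0.43, exact permutation adjusted p = 0.163 and 0.345). In Tumor against NdLN the counts relative to Pecam1 were again 7 higher and 2 lower, with 92.3% and 2.13% of all genes. In TdLN against NdLN, 6 of 10 genes were higher relative to Pecam1 (39.9% of all genes) and 8 relative to Prox1 (47.4%). The latter count was 0 without NdLN library 2, 4 without library 3, 3 without library 4 and 2 without library 5 of that group. Relative to Cdh5 the exact permutation adjusted p of the 10 genes in that comparison was 0.0900 to 0.710.

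**Figure D4:**
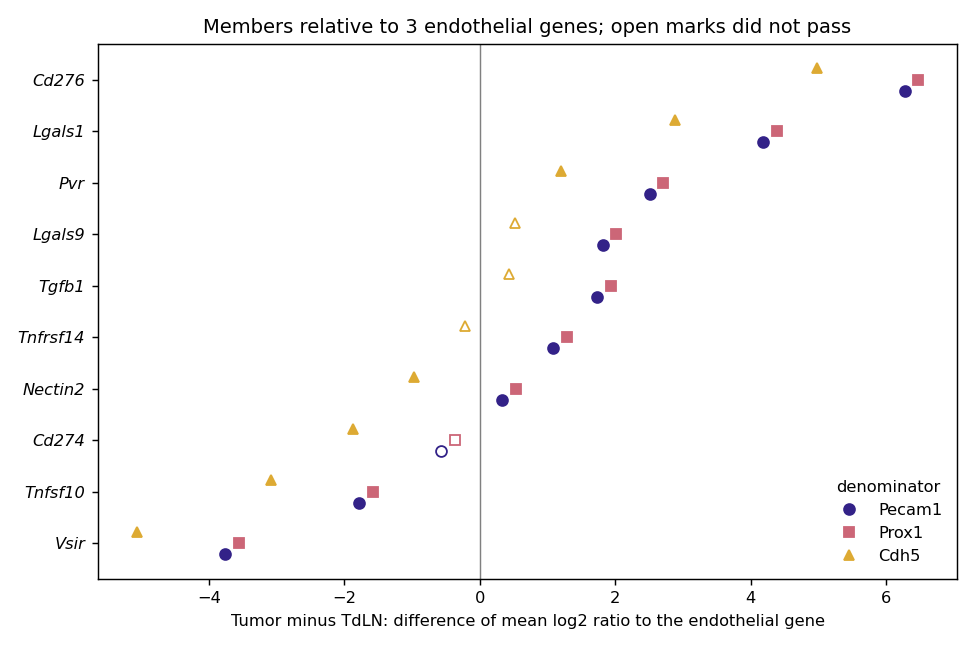
Difference between Tumor and TdLN in the mean log2 ratio of each gene to Pecam1, Prox1 or Cdh5 (CPM + 1); filled marks passed the exact permutation test at an adjusted p under 0.05. Vsir and Tnfsf10 lie below 0 and Lgals1, Pvr and Cd276 above 0 with filled marks for every denominator, while Nectin2 changes sides with Cdh5 (-0.97).

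The genes around the 10 were taken from 8 lists of 101 names, of which 82 were tested. In TdLN against NdLN 1 was higher, 3 were lower and 78 did not pass, where 3.49% of all genes tested were called. Those that passed were Lgals3bp (0.75 ± 0.16, edgeR adjusted p = 0.0214), which encodes a galectin-binding glycoprotein, Icosl (-1.10 ± 0.28, edgeR adjusted p = 0.0425), the ligand of the costimulator ICOS, Btnl9 (-1.19 ± 0.30, edgeR adjusted p = 0.0413), a butyrophilin-like gene, and Myc (-0.87 ± 0.11, edgeR adjusted p = 0.00113), a transcription factor. In Tumor against TdLN 13 rose, 42 fell and 27 did not pass, where 31.9% of all genes tested rose and 30.1% fell. In Tumor against NdLN 15 rose, 41 fell and 26 did not pass, where 34% rose and 32.5% fell. Their median log2 fold changes were -0.89 and -0.98, beside 0.04 over all genes tested in both.

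The counts of single lists that follow stand beside the same 31.9% and 30.1% in Tumor against TdLN. The lists are short, and nothing particular to any of them is read from its count. The list on the interferon-gamma route to Cd274 and the stabilizers of its protein had 11 of 14 genes that fell and 1 that rose in Tumor against TdLN. Jak1, the kinase of interferon receptors, fell from 2417 to 273 CPM, the receptor gene Ifngr1 from 271 to 78.2 CPM, and Cmtm6, whose product protects PD-L1 from breakdown, from 289 to 107 CPM. The interferon factor gene Irf9 fell by 1.47 on the log2 scale. Hif1a rose from 162 to 332 CPM. In the TGF-beta list 12 of 18 fell and none rose. Ltbp2, a gene of latent TGF-beta binding proteins, fell from 640 to 7.47 CPM, Nrros, an anchor of latent TGF-beta, from 202 to 13.5 CPM, the ligand gene Tgfb3 from 167 to 47.1 CPM and the endothelial receptor gene Acvrl1 from 225 to 71.9 CPM, whereas Tgfb1 itself did not pass.

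Of 13 TNF superfamily genes 8 fell and 4 rose in Tumor against TdLN. Ltb, a ligand gene of lymphoid tissue, fell from 308 to 8.35 CPM, and the receptor genes Tnfrsf1b, Tnfrsf1a and Fas fell by 2.11, by 1.00 and by 2.16 on the log2 scale. In the list labelled partners on T and NK cells, 3 of 8 rose and 2 fell. The cells that its transcripts came from were not tested, so its counts are not read as a signal of those cells. Cd226, which encodes DNAM-1, was at 17.2 CPM in TdLN and 0.161 CPM in Tumor, while the T and NK cell markers summed to no more than 6.04 CPM in any TdLN library. Igsf11, whose product binds VISTA, rose from 0.119 to 20.2 CPM, and Pdcd1, which encodes PD-1, from 1.37 to 5.33 CPM. Among 5 galectins 3 rose and 2 fell: Lgals3 rose from 1.92 to 300 CPM and Lgals8 fell from 229 to 97.1 CPM. Lgals3bp, which is on the same list but encodes no galectin, fell by 0.40 on the log2 scale (edgeR adjusted p = 0.0431). In the nectin list 2 of 6 rose and 1 fell, and Cadm1, an adhesion gene of the immunoglobulin family, rose from 1.82 to 243 CPM. Of the metabolic regulators 3 of 11 fell and none rose. Il4i1, a secreted amino acid oxidase that restrains T cells, fell from 877 to 2.38 CPM, Nos2, the inducible nitric oxide synthase, from 128 to 23.3 CPM and Ptgs2, a prostaglandin synthase, from 34.7 to 13.6 CPM. The last list held 6 tested genes, namely B7 and butyrophilin genes together with Cd200 and Cd47, which belong to neither family. Of these 2 fell and none rose: Btnl9 (104 to 53.4 CPM) and Cd47 (897 to 537 CPM), which encodes the ligand of the macrophage receptor SIRP-alpha. The pigment cell sums of 24129 to 39608 CPM stand beside all these Tumor values, and their part was not tested.

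**Figure D5:**
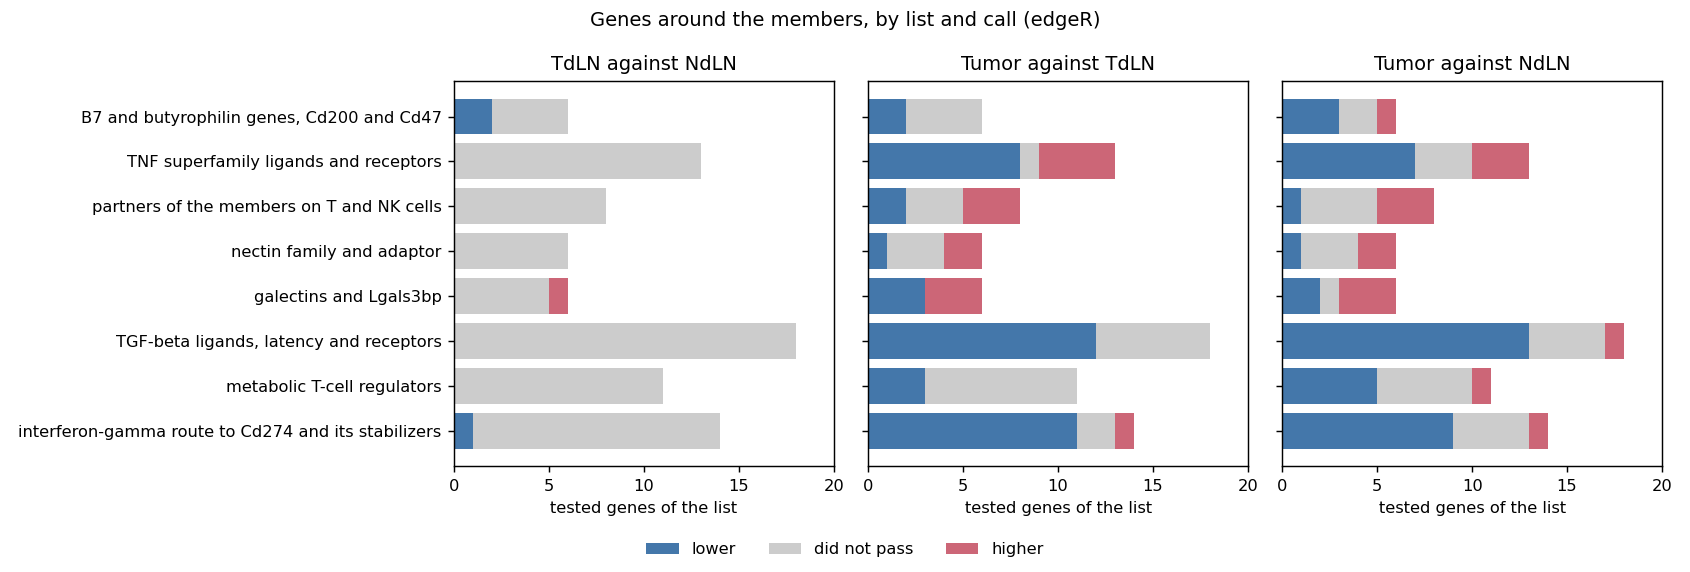
Number of tested genes in each of 8 lists that were lower, did not pass or were higher (edgeR, adjusted p under 0.05) in the 3 comparisons. In Tumor against TdLN the TGF-beta list has 12 lower and 0 higher of 18, and the interferon-gamma list 11 lower and 1 higher of 14.

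The genes most like each member were found by the mean absolute difference of their centred log2 (CPM + 1) over the 15 libraries. They were sought among 9257 genes with a mean of at least 10 CPM. At levels near or below 1 CPM the added 1 shrinks differences, so likeness there need not mean a like fold change. C5ar2 was nearest to Vsir (0.16 log2 units), followed by Cldn11 and Atcay. Prnp was nearest to Cd274 (0.22), then Ehd3 and Serpina3f. For Tnfsf10 these were Cntn1, Il13ra2 and Kcna6, and for Nectin2 they were Tmem98 (0.11), Dnmbp and Flot1. Cntn1 averaged 15.7 CPM in TdLN and 0.104 CPM in Tumor, a larger fold change than that of Tnfsf10 (239 and 14.6 CPM). Uqcr10 and Atp5o, which encode parts of the respiratory chain and of ATP synthase, and Pmf1 were nearest to Lgals1 (0.16). Cd276 had no gene as close: Slc7a8 was nearest at 0.44, then Mest and Bend6. Fbxw17, Tspo and Icam2 were nearest to Lgals9, Mrgpre, Nf2 and Cttnbp2nl to Pvr, Irf8, Tango6 and Clptm1 to Tnfrsf14, and Itga5, Impdh1 and Slc35c1 to Tgfb1. The level of Tnfrsf14, 0.164 to 4.09 CPM, is of the size of the added 1, so no likeness in fold change is read from its nearest genes. Irf8 averaged 514 CPM in TdLN and 227 CPM in Tumor, against 2.47 and 0.642 CPM for Tnfrsf14. Among the 10 genes themselves Pvr and Tgfb1 were the closest pair (0.36), and Lgals9 and Tgfb1 followed (0.42).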

How the data were processed

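RNA of sorted lymphatic endothelial cells was sequenced in 15 libraries. Per the labels' protocols, each began with 1 ng of total RNA, made and amplified cDNA with a kit for small inputs, used 200 pg of it for library preparation and was read as single reads of 50 bases. Libraries were sequenced in pools of 10, the pool of each is not recorded in these labels, and its effect was not tested. The authors deposited raw counts per gene, not normalized. The submitters' processing notes name featureCounts 1.4.6, STAR 2.4, CASAVA 1.8.2 and build GRCm38, without their roles. Gene IDs were matched to GENCODE M21 of the same build (21628 of 21839 IDs).

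After filterByExpr and TMM scaling, edgeR 4.0.16 (quasi-likelihood, robust; R 4.3.3) fitted the 3 groups of 5 at once, with Benjamini-Hochberg adjustment over 13887 genes. Ratios to endothelial genes used CPM with a pseudocount of 1 and every regrouping of 5 against 5, adjusted over all genes tested. The scripts were tested on simulated data. DESeq2 1.42.0, limma 3.58.1 (voom), glmTreat, other scalings and filters, a replicate block and leaving out each library were alternatives. The reads were amplified and carry no molecular identifiers, so totals bound counting error only.

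The members, gene lists, tests and named genes were chosen with earlier results of these data known. Named genes were all 10 members, up to 4 genes of each list with the smallest adjusted p in a comparison, the 3 genes nearest to each member in pattern, and the sort genes. Tnfrsf10b, Tnfrsf11b, Hif1a, Ccl21a, Reln, Postn, Col1a1, Col3a1 and Mrc1 were named after their values were seen. Promoter sequences are from RefSeq (GRCm38.p6).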

Additional observations from a re-analysis of the deposited data

Results flagged for a closer look

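In groups of 5 libraries, a value was taken to stand apart when its gap to the nearest library exceeded 0.710 of the range of the group (Dixon's 95% critical value). Of 30 groups of values tested (10 genes in 3 groups), 2 met this, and chance alone gives about 1 in 20. Tnfrsf14 in TdLN library 3 was at 4.09 CPM, with the next TdLN library at 2.28 CPM and the gap at 0.76 of the range. Cd276 in Tumor library 1 was at 61.0 CPM, with the next Tumor library at 174 CPM and the gap at 0.756 of the range. Leaving out the library in question changed no edgeR call of its gene.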

How the results depend on the processing

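The directions of the 7 genes called in Tumor against TdLN and in Tumor against NdLN held under all 21 alternatives (20 for Tnfrsf14, which a filter of 10 CPM in 5 libraries removed), and only the call of Tnfrsf14 against NdLN was lost. Leaving out each library in turn gave 7 to 9 called genes in Tumor against TdLN, 7 in Tumor against NdLN and 0 in TdLN against NdLN, where DESeq2 called 1. For these refits and DESeq2, the share of all genes called is given only without Tumor library 1. Of 1548 values under alternatives, 14 of single genes newly passed and 72 no longer passed. Another 8 changed sign and passed in the main result, in the alternative or in both. Changes of sign where neither value passed were not counted. The cause of these changes was not tested.

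The ratios depended on the denominator. With Cdh5 in place of Pecam1 or Prox1, the count of changed genes in TdLN against NdLN was 0, against 6 and 8. In Tumor against TdLN the log2 ratio turned to -0.97 for Nectin2 and -0.22 for Tnfrsf14, and in Tumor against NdLN to -1.42 for Cd274 and -0.59 for Nectin2. Leaving out 1 library gave 0 to 7 changed ratios to Prox1 in TdLN against NdLN, and 4 to 6 changed ratios to Pecam1. In the Tumor comparisons these counts were 8 to 9.

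Libraries with the same number deviated together weakly or not at all (correlations of -0.09 to 0.25 for TdLN with NdLN, -0.21 to -0.04 for Tumor with TdLN and -0.09 to 0.19 for Tumor with NdLN). Such correlations cannot decide whether a number marks 1 animal, which the sources used here do not say. The library of the same number was the best partner for library 1 of TdLN and libraries 1 and 2 of Tumor, each with NdLN, and for no other. With the replicate block the counts of called genes were 0, 7 and 7, as without it. Depth limits Tnfrsf14 most, with 4 to 42 counts per Tumor library.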
